A study of Mus musculus with 10 samples.

Results

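The genes described here belong to 8 families of membrane carriers that move organic anions, organic cations, drugs, peptides, monocarboxylates, nucleosides and riboflavin. They were taken from the platform's probe set annotation as every probe set with a single symbol beginning with Slc22a, Slco, Slc47a, Slc15a, Slc16a, Slc28a, Slc29a or Slc52a. This gave 103 of 45037 probe sets and 61 of 18193 genes. The rule uses gene symbols alone. RNA came from urogenital systems of mice at embryonic day 15.5 and was measured on Affymetrix arrays, 1 per RNA pool. In 5 pools, called homozygous, both copies of Wnt9b were the cneo allele (Wnt9bcneo/cneo). The other 5 pools, called control, have the genotype label Wnt9bcneo/+, with 1 cneo and 1 normal copy, whereas their sample titles read WT. Each array was made from RNA of 1 to 2 urogenital systems. The system spans kidney, gonads, ducts, adrenal glands and bladder. Marker RNA of kidney, gonad, adrenal cortex and bladder differed in level among the pools, and how much of each organ a pool held was not recorded in the labels. How the allele acts on Wnt9b is left unstated in the labels. The brighter of 2 Wnt9b probe sets measured 103, 179, 47.8, 107 and 201 in homozygous pools 1 to 5, against 135, 121, 143, 126 and 140.5 in control pools 1 to 5, a log2 difference of -0.23 ± 0.36 (limma adjusted p = 0.803). Some homozygous pools were above all control pools and others below them, and the second probe set was mostly near the array floor, so Wnt9b signal did not tell the genotypes apart. Whether these probe sets lie in the altered part of the gene is not known here, so they do not check the labels.

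In the adult kidney a part of these carriers sit on proximal tubule cells, where they clear drugs, toxins and metabolites from blood into urine or recover nutrients from the filtrate. Uptake from blood runs through organic anion transporters such as Slc22a6 and Slc22a8 and organic cation transporters such as Slc22a2, and exit into urine runs through partners such as Slc47a1. Others serve many tissues: Slc16a1 carries lactate, Slc22a5 carnitine, Slc29a1 nucleosides. Wnt9b is a secreted ligand of the ureteric bud that induces nephrons, and proximal tubules form from these nephrons.

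All arrays had a trimmed mean of 500. Precision is set by how few arrays there are. Intensities under 16 were set to this floor before log2 was taken. The floor held 19.9% to 21.1% of probe sets in the homozygous group and 22.2% to 23.0% in the control group. Of the 61 genes, 19 were at or under it on at least 1 array, 9 to 10 per homozygous array and 8 to 12 per control array. Homozygous pool 5 and control pool 1 had a ratio of 3' to middle actin signal, a measure of RNA integrity, of 97.67 and 94.77, against 9.87 to 33.13 in the other 8 pools. Xist was high, 13.75 to 14.27 on the log2 scale, in homozygous pools 3, 4 and 5, and 5.13 to 6.07 in the rest. The titles of homozygous pools 1 to 4 carry a suffix that no other title has. Its part in the differences was not tested. The nephron progenitor gene Six2 ranged from 1452 to 3101 in homozygous pools and 2483 to 6884 in control pools, and the uroplakin gene Upk3a of the bladder lining from 156 to 840.4 in homozygous pools and 152 to 461 in control pools. Of the 3 measured kidney markers, Six2 differed by -0.91, Wt1 by -0.53 and Foxd1 by 0.03 on the log2 scale. All 3 bladder markers were higher in homozygous pools, Upk1b by 1.69, Upk2 by 0.47 and Upk3a by 0.37. None of these markers passed the threshold. The 5 adrenal cortex markers summed to 3516 to 32889 in homozygous pools, against 4582 to 17148 in control pools 3, 4 and 5 and only 144 and 168 in control pools 1 and 2, which stood apart. Hsd3b1, an enzyme of steroid synthesis, measured 7.7 and 16.3 in these 2 pools, and Nr5a1, a gene of gonad and adrenal cortex, 10.7 and 6.0. All 5 adrenal cortex markers were higher in homozygous pools (median log2 difference 1.495), as were all 3 smooth muscle markers (median 2.15, sums of 11776 to 28933 in homozygous pools and 7522 to 20129 in control pools) and 4 of 5 gonad markers (median 1.15, sums of 1129 to 3238 in homozygous pools and 302 to 3476 in control pools), none past the threshold. All 4 skeletal muscle markers (median 1.69) and all 4 liver markers (median 0.98) were higher too, and none passed. Of 4 endothelium markers 3 were lower (median -0.07). The part of these tissues in the members' differences was not tested.

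Of the measured carriers, 7 that were lower in homozygous pools lie within 2.09 Mb of chromosome 19. The 100 bases before the listed start site are shown for the 5 of these 7 lower genes with a match there, because the nuclear factors HNF1 and HNF4 are known to act on transporter promoters of the proximal tubule. Sequences are from RefSeq (GRCm38.p6), read 5′ to 3′ on the strand of the gene, with GTTAAT (part of the HNF1 site) and CAAAGT (part of the HNF4 site), or their reverse complements, in capitals.
Slc22a6, chr19:8617896-8617995, plus strand: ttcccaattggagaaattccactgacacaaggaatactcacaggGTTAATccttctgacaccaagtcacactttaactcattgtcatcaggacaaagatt
Slc22a8, chr19:8593082-8593181, plus strand: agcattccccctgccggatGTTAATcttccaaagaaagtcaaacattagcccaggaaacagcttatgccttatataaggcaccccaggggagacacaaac
Slc22a29, chr19:8218901-8219000, minus strand: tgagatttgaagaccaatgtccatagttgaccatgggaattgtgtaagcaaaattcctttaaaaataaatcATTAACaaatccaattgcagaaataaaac
Slc22a19, chr19:7711311-7711410, minus strand: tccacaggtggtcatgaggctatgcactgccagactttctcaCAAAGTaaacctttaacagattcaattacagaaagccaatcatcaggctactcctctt
Slc22a12, chr19:6543071-6543170, minus strand: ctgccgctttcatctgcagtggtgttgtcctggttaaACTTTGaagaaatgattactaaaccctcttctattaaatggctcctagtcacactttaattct
GTTAAT stood 56 bases before the start of Slc22a6 and 81 before that of Slc22a8, and its reverse complement 29 before that of Slc22a29. The listed starts of Slc22a8 and Slc22a29 lie inside the gene spans, 8591254 to 8611835 and 8160168 to 8253375. Their stretches are thus not at the outer end of the gene. CAAAGT stood 58 bases before the start of Slc22a19 and its reverse complement 63 before that of Slc22a12. Of the 2 lower genes not shown, Slc22a30 held CAAAGT only further out, at -221 and -195, and Slc22a27 held neither motif in its window. Over windows of 300 bases (250 before to 50 after the start, both strands), 50 of the 61 genes matched the RefSeq table with 62 windows. GTTAAT was in 5 of these 62 windows (8.06%) and in 7.1% of all 32851 windows. CAAAGT was in 11 of the 62 (17.7%) and in 14.4% of all windows. Both shares in the carrier families were thus near those of all promoters.

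Across the 8 families, 2 genes fell in homozygous pools and none rose past the threshold, a Benjamini-Hochberg adjusted p under 0.05 over all 18193 genes in limma. The 2 were Slc22a19, an organic anion carrier of the mouse kidney, and Slc52a3, a riboflavin carrier. They are 3.28% of the members, while 0.429% of all genes passed as lower and 0.539% as higher (0.967% in either direction). Neither passed when the 2 pools of high actin ratio, the 3 pools of high Xist or control pools 1 and 2 were left out. With 1 pool left out at a time, no member passed as lower in 8 of 10 fits, 2 passed without homozygous pool 2 and 5 without control pool 2. At an unadjusted p under 0.05, 16 members were lower and 6 higher, where 5.89% of all genes were lower and 9.83% higher. In 9 members every homozygous pool lay below every control pool, and in 2 every homozygous pool lay above, 14.8% and 3.28% of the 61, against 2.10% and 2.61% of all genes. The median log2 difference was -0.14 over the members and 0 over all genes, and 37 members were lower, 21 higher and 3 at the floor on all arrays. In bulk tissue, fewer cells of a type and less RNA per cell cannot be told apart. Taken as separate features over all 45037 probe sets, none of the 103 passed in limma (lowest adjusted p 0.0557, Slc52a3), where 0.120% passed as lower and 0.111% as higher. Of the 30 members with more than 1 probe set, 6 had probe sets of opposite sign: Slc15a4, Slc16a5, Slc16a9, Slco1a1, Slco2a1 and Slco6c1.

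**Figure D1:**
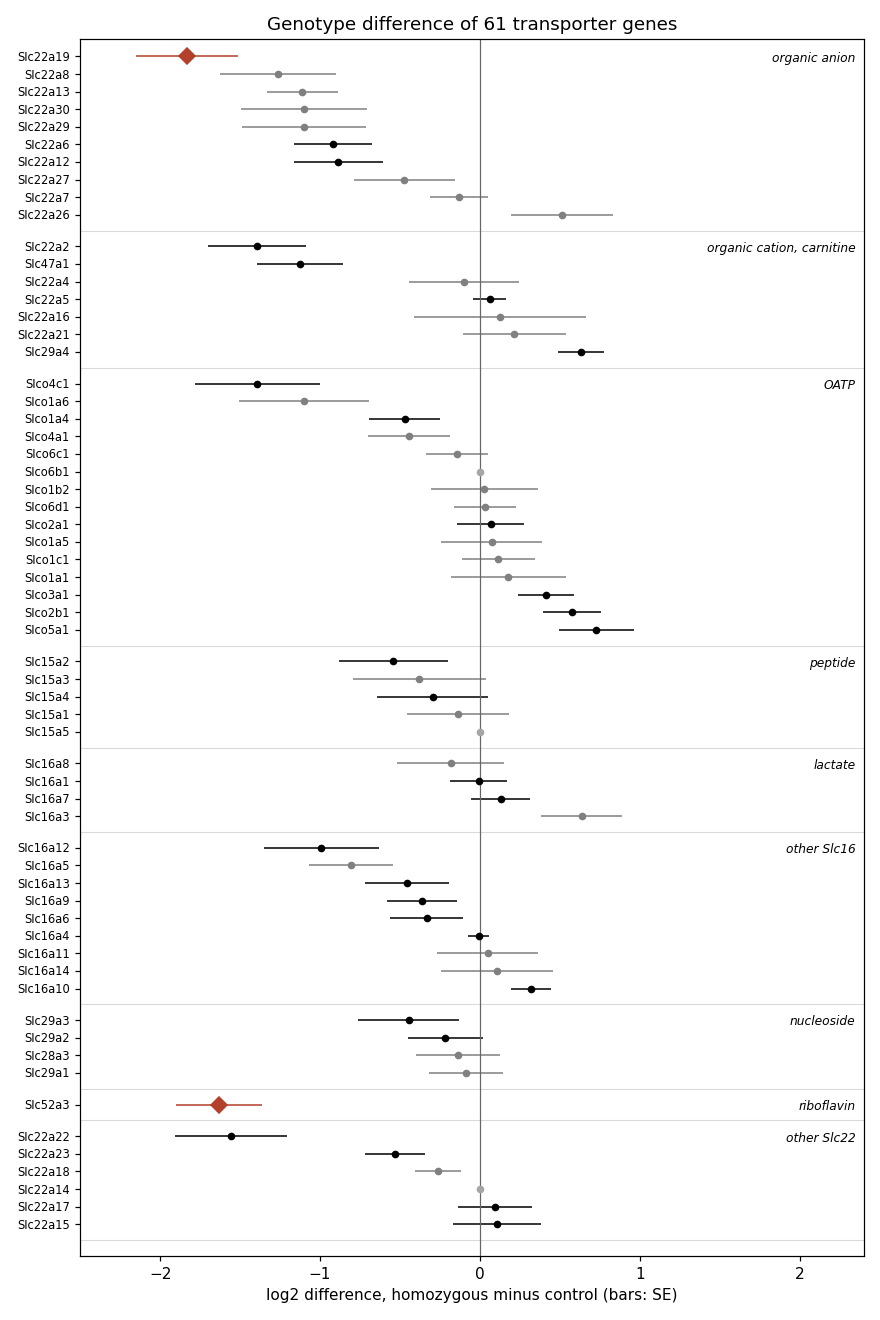
Log2 difference, homozygous minus control, of each of the 61 genes, grouped by role, with standard errors as bars (5 pools per genotype). Red diamonds mark Slc22a19 and Slc52a3, the 2 genes with an adjusted p under 0.05; grey marks genes whose mean intensity over all pools was 100 or less, and members at the floor on all arrays sit at 0 without a bar. The organic anion group lies mostly left of 0.

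The organic anion exchangers of the Slc22 family were lower in 9 of 10 measured members, with a median log2 difference of -1.01, and 1 of the 10 passed. Slc22a19 (GRCm38.p6, chromosome 19, 7673075 to 7711310) had intensities of 105, 133, 71.5, 162 and 91.0 in homozygous pools 1 to 5, against 608, 246, 509.6, 419.5 and 263 in control pools 1 to 5. The highest homozygous pool was thus below the lowest control pool. Its mean was 6.76 ± 0.46 in homozygous pools and 8.59 ± 0.58 in control pools (log2, SD, n = 5 each). Slc22a19 fell by 1.83 ± 0.32 on the log2 scale (SE, limma adjusted p = 0.0472), a 3.56-fold lower level. Leaving out the 2 pools of high actin ratio gave Slc22a19 a difference of -1.60 (limma adjusted p = 0.105). Leaving out the 3 pools of high Xist gave -1.70 (limma adjusted p = 0.350), and leaving out control pools 1 and 2 gave -1.82 (limma adjusted p = 0.068). Of the 10 fits that each left out 1 pool, Slc22a19 passed in 2, without homozygous pool 2 or control pool 2. In the other 8 limma's adjusted p ran from 0.0553 (without homozygous pool 4) to 0.134 (without control pool 3), with differences of -1.98 to -1.67.

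Slc22a6 and Slc22a8 take up organic anions, among them many drugs, from blood into proximal tubule cells, and neighbour each other on chromosome 19. Slc22a6 (GRCm38.p6, chromosome 19, 8617996 to 8628299) measured 89.2, 149.6, 114, 197 and 119 in homozygous pools 1 to 5, against 346, 199, 265, 202 and 235 in control pools 1 to 5. The groups came close but did not overlap, at 197 in the highest homozygous pool and 199 in the lowest control pool. Its log2 difference of -0.92 ± 0.24 did not pass (limma adjusted p = 0.106), and its dimmer probe set differed by -0.89. Slc22a8 (GRCm38.p6, chromosome 19, 8591254 to 8611835) measured 48.1, 80.1, 56.0, 60.8 and 37.8 in homozygous pools 1 to 5, against 77.6, 109.6, 288, 158 and 102 in control pools 1 to 5. Here 1 control pool, pool 1, lay inside the homozygous range, and the log2 difference was -1.26 ± 0.36 (limma adjusted p = 0.129). In the second probe set of Slc22a8 all homozygous pools, 7.6 to 31.3, lay under all control pools, 39.9 to 139, with a difference of -1.51.

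Slc22a12, the urate exchanger of the tubule's apical membrane, measured 240.1, 328, 211, 402 and 330.0 in homozygous pools 1 to 5, against 1001, 398, 579.6, 483 and 426 in control pools 1 to 5. Only homozygous pool 4 reached into the control range, by a narrow margin above control pool 2. The log2 difference of this brighter probe set of Slc22a12 was -0.89 ± 0.28 (limma adjusted p = 0.164). The dimmer one differed by -0.28, at 3.7 to 79.3 in homozygous pools and 8.4 to 70.6 in control pools. It was at or under the floor on 3 homozygous arrays and 1 control array. Slc22a13, a carrier of urate and nicotinate, measured 57.7, 73.8, 43.0, 85.1 and 70.3 in homozygous pools 1 to 5, against 149, 112, 171, 164 and 111 in control pools 1 to 5. No pool of one genotype entered the range of the other. Slc22a13 differed by -1.11 ± 0.22 on the log2 scale, just outside the threshold (limma adjusted p = 0.0573). It passed in 4 of 21 alternative fits.

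Beside Slc22a12, Slc22a19, Slc22a8 and Slc22a6, the Slc22 group on chromosome 19 holds 4 further measured members. Slc22a29 and Slc22a30 had ranges of 25.8 to 91.9 in homozygous pools and 66.8 to 155 in control pools for the first and 24.8 to 87.9 in homozygous pools and 60.2 to 141 in control pools for the second, both with log2 differences of -1.10. Slc22a27, at or under the floor on 3 homozygous and 2 control arrays, differed by -0.47 and Slc22a26, at or under it on 1 homozygous and 3 control arrays, by 0.51. Of the 8 Slc22 members on chromosome 19, 7 were therefore lower. The 32 measured genes of other families between Slc22a12 and Slc22a6 (6535854 to 8628299) were split, 16 lower and 16 higher with a median of -0.03, and none passed. The probe sets of Slc22a27 and Slc22a29 are of the kind Affymetrix marks as open to cross-hybridization, so values of these near copies may share signal. Slc22a7, an anion carrier of adult liver and kidney, lay near the floor, at 9.0 to 23.0 in homozygous pools and 5.0 to 29.5 in control pools.

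The organic cation carriers did not move as a block. Slc22a2, the main uptake carrier for organic cations in the kidney, and Slc47a1, which extrudes them into urine, were both lower with no overlap between genotypes. Slc22a2 (GRCm38.p6, chromosome 17, 12584189 to 12628489) measured 70.9, 70.5, 40.1, 88.6 and 86.5 in homozygous pools 1 to 5, against 284, 124, 244, 162 and 140.1 in control pools 1 to 5. Homozygous pool 3 stood lowest, and the log2 difference was -1.40 ± 0.31 (limma adjusted p = 0.0707). Slc47a1 (GRCm38.p6, chromosome 11, 61343400 to 61378842) measured 459.6, 713, 408, 825 and 723 in homozygous pools 1 to 5, against 1833, 834, 1674, 1318 and 1163 in control pools 1 to 5. The closest pair were homozygous pool 4, at 825, and control pool 2, at 834. Its log2 difference was -1.12 ± 0.27 (limma adjusted p = 0.0863).

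The carnitine carrier Slc22a5 measured 979.7, 924, 953, 1161 and 934 in homozygous pools 1 to 5, against 804, 1059, 1086, 853 and 960.2 in control pools 1 to 5, and the ranges overlapped throughout. The log2 difference was 0.06 ± 0.10, with a 95% interval of -0.17 to 0.29. Slc22a4, a carrier of ergothioneine, was near the floor, at 2.5 to 41.0 in homozygous pools and 1.9 to 39.5 in control pools. Slc22a21, a mouse carnitine carrier that neighbours Slc22a5 and Slc22a4 on chromosome 11, ranged from 72.4 to 152 in homozygous pools and 51.8 to 142 in control pools (difference 0.21). Slc22a16, a carnitine carrier known from testis, was at or under the floor on 2 arrays of each genotype.

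Slc29a4, the plasma membrane monoamine transporter, was the member with higher levels closest to the threshold. Its brighter probe set, also of a kind open to cross-hybridization, measured 489, 518, 693, 475 and 543 in homozygous pools 1 to 5, against 386, 415, 271, 344 and 337 in control pools 1 to 5. All homozygous pools exceeded all control pools. The log2 difference was 0.63 ± 0.14 (limma adjusted p = 0.0753), and the second probe set differed by 0.53 with overlapping groups, 39.2 to 238 in homozygous pools and 56.3 to 105 in control pools. The 4 measured markers of sympathetic neurons and chromaffin cells (of 5 listed) were all higher, none past the threshold; their summed intensity was 2965 to 7173 in homozygous pools and 216 to 1584 in control pools, and none was at the floor on all arrays. Their part in the Slc29a4 difference was not tested.

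**Figure D2:**
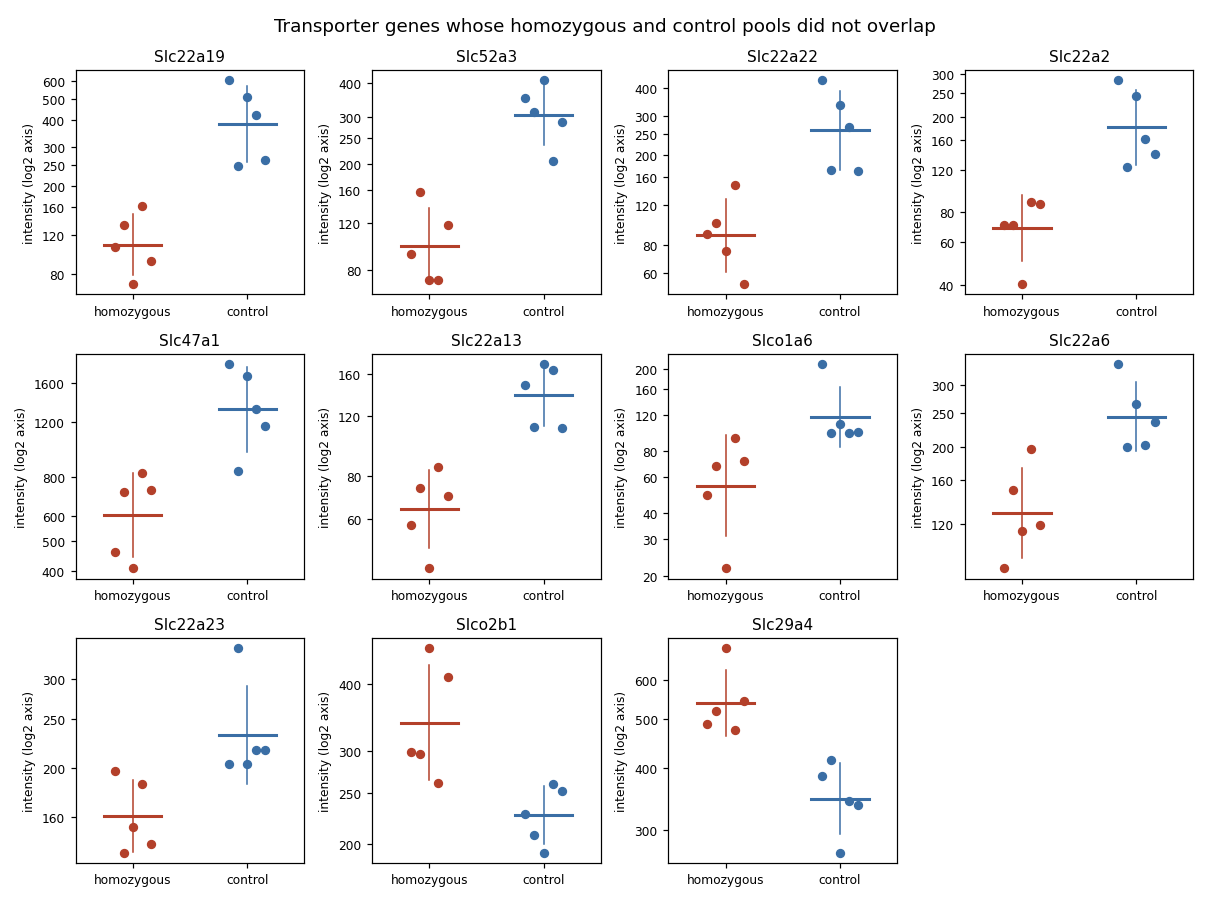
Intensity of the 11 genes whose groups did not overlap, 1 point per pool on a log2 axis, with the mean of log2 values (bar) and its SD (line) for homozygous (red, left) and control (blue, right) pools. In the first 9 panels all homozygous pools lie lower, and in the panels of Slco2b1 and Slc29a4 they lie higher.

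Slc52a3 was the only riboflavin carrier among the measured members and had the smallest adjusted p of the 61. This gene (GRCm38.p6, chromosome 2, 151996511 to 152009258) measured 92.0, 157, 73.8, 73.4 and 119 in homozygous pools 1 to 5, against 353, 312, 412, 204 and 287 in control pools 1 to 5. The ranges were apart, with 157 as the highest homozygous and 204 as the lowest control value. Its mean was 6.62 ± 0.47 in homozygous pools and 8.26 ± 0.38 in control pools (log2, SD, n = 5 each). Slc52a3 fell by 1.63 ± 0.27 on the log2 scale (SE, limma adjusted p = 0.0397), a 3.1-fold lower level. Leaving out the 2 pools of high actin ratio gave Slc52a3 a difference of -1.65 (limma adjusted p = 0.0917). Leaving out the 3 pools of high Xist gave -1.34 (limma adjusted p = 0.363), and leaving out control pools 1 and 2 gave -1.55 (limma adjusted p = 0.0954). With 1 pool left out at a time Slc52a3 passed in 2 of 10 fits, again without homozygous pool 2 or control pool 2. In the other 8 limma's adjusted p ran from 0.0646 (without control pool 4) to 0.118 (without control pool 3), with differences of -1.78 to -1.52.

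**Figure D3:**
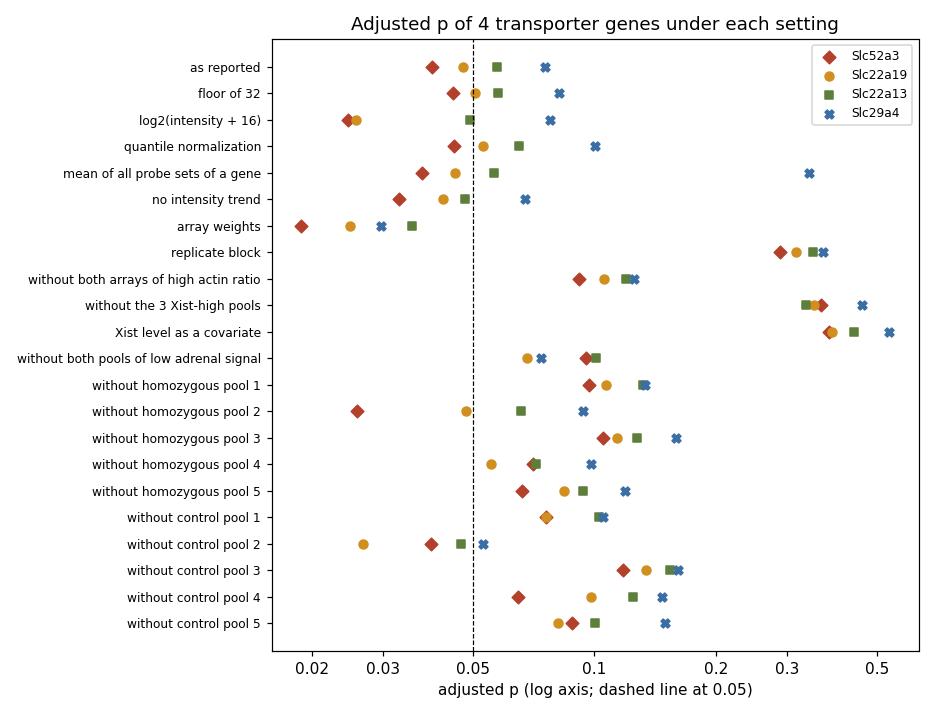
Adjusted p (log axis) of Slc52a3, Slc22a19, Slc22a13 and Slc29a4 in the reported fit, in 11 alternative fits and in 10 fits that each leave out 1 pool. Points left of the dashed line at 0.05 pass; Slc52a3 passed in 8 of 21 alternatives and Slc22a19 in 6 of 21, the low adrenal signal being that of control pools 1 and 2, and none of the 4 genes was bright enough for the fit that left out the dimmest 60% of genes.

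The organic anion transporting polypeptides, encoded by Slco genes, went both ways: of 15 measured, 5 were lower, 9 higher and 1 at the floor on all arrays, with a median of 0.03 and none past the threshold. Slco4c1, a basolateral carrier of the kidney tubule, measured 109, 285, 124, 206 and 116 in homozygous pools 1 to 5, against 858, 244, 462, 353 and 336 in control pools 1 to 5. Homozygous pool 2 lay above control pool 2, and the log2 difference was -1.39 ± 0.39 (limma adjusted p = 0.123). Slco1a6, another kidney member in mice, measured 48.8, 67.6, 21.7, 92.4 and 71.8 in homozygous pools 1 to 5, against 210.0, 97.8, 108, 97.6 and 99.1 in control pools 1 to 5. Its groups were apart, homozygous pool 3 lay far under the rest and control pool 1 far above, and the difference was -1.10 ± 0.40 (limma adjusted p = 0.226). Slco1a4 differed by -0.47 ± 0.22 and Slco4a1 by -0.44 ± 0.26, with overlapping groups.

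Slco2b1, a widely expressed member of the family, was higher in homozygous pools. It measured 298, 296, 467, 261 and 413 in homozygous pools 1 to 5, against 228, 208, 193, 259.6 and 252 in control pools 1 to 5. The groups were separated by a small gap between 261 in homozygous pool 4 and 259.6 in control pool 4. The log2 difference was 0.58 ± 0.18 (limma adjusted p = 0.161), and its dimmer probe sets differed by 0.83 and 0.66, with overlap in both and the second at the floor in all control pools. Of 4 macrophage markers 3 were higher and 2 rose, Adgre1 and Csf1r, where 0.539% of all genes passed as higher. None of the 4 was at the floor on all arrays. The summed intensity of these markers was 3200 to 4384 in homozygous pools and 2123 to 2650 in control pools. Their part in the Slco2b1 difference was not tested. Slco5a1 ranged from 157 to 286 in homozygous pools and 93.9 to 194 in control pools (difference 0.73 ± 0.23, limma adjusted p = 0.17).

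Slco3a1, which carries prostaglandins among other anions, ranged from 717 to 1077 in homozygous pools and 519.8 to 935 in control pools. Its 3 probe sets gave differences of 0.41, 0.54 and 0.01, so they did not give 1 answer; 1 of the 3 passed in the probe set fit after quantile normalization. The brightest probe set of the prostaglandin carrier Slco2a1 overlapped fully, at 218 to 441 in homozygous pools and 242 to 385 in control pools. Its difference was 0.07, with a 95% interval of -0.41 to 0.54, and the dimmer probe sets of Slco2a1 differed by -0.33 to 0.22. The liver carrier Slco1b2, the thyroid hormone carrier Slco1c1, and Slco1a1, Slco1a5, Slco6c1 and Slco6d1 were at or under the floor on 1 to 4 arrays of each genotype. Their differences ran from -0.14 (Slco6c1) to 0.18 (Slco1a1). Slco6b1 was at or under the floor on all arrays.

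Among the peptide carriers, 4 of 5 were lower and none passed. Slc15a2, the high-affinity peptide carrier of the kidney, had 3 probe sets. The brightest measured 993, 1326, 536, 750.1 and 569 in homozygous pools 1 to 5, against 2039, 1484, 1023, 823 and 769.6 in control pools 1 to 5. These values overlapped (difference -0.54 ± 0.34, limma adjusted p = 0.505), and the other 2 probe sets differed by -0.90 and -0.96, with 1 homozygous pool in each inside the control range. Slc15a4, a lysosomal carrier of histidine and peptides, ranged from 137 to 401 in homozygous pools and 186 to 447 in control pools, and its lowest value in each genotype was in an array of high actin ratio. Slc15a3, of the same lysosomal pair, differed by -0.38. The intestinal peptide carrier Slc15a1 was near the floor, at 12.9 to 27.6 in homozygous pools and 13.4 to 50.1 in control pools, and Slc15a5 was at or under it throughout.

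The lactate carriers showed no common direction. Slc16a1, the widely expressed lactate and pyruvate carrier, measured 3548, 3798, 3789, 3690.2 and 6775 in homozygous pools 1 to 5, against 4499.6, 3766, 3714, 4564 and 4576 in control pools 1 to 5. Homozygous pool 5 stood apart from its group, and the log2 difference was -0.01 ± 0.18, with a 95% interval of -0.41 to 0.40. Slc16a7 differed by 0.13 ± 0.19 and Slc16a8, a carrier known from retinal pigment epithelium, by -0.18 ± 0.34. Slc16a3, which exports lactate from glycolytic cells, measured 136, 113, 89.1, 70.4 and 128 in homozygous pools 1 to 5, against 41.4, 81.5, 69.7, 82.6 and 70.0 in control pools 1 to 5. It was higher by 0.64 ± 0.25 (limma adjusted p = 0.267), with overlapping groups and control pool 1 lowest.

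In the rest of the Slc16 family 6 of 9 members were lower, with a median of -0.33. Slc16a12, a creatine carrier of the kidney, measured 359.7, 269, 132, 218 and 249 in homozygous pools 1 to 5, against 1018, 340.0, 393, 457 and 345 in control pools 1 to 5. Control pool 1 was far above every other pool, and the difference of -0.99 ± 0.36 (limma adjusted p = 0.22) was -0.71 without that pool. Slc16a5 ranged from 38.7 to 57.4 in homozygous pools and 41.0 to 111 in control pools (difference -0.81 ± 0.27), with control pool 2 at 41.0 as the only control pool inside the homozygous range. Without control pool 2 the difference of Slc16a5 was -1.04 (limma adjusted p = 0.0258). The dimmer probe set of Slc16a5, at or under the floor on 3 homozygous and 4 control arrays, differed by 0.05. Slc16a13 differed by -0.46 ± 0.26, Slc16a9 by -0.36 ± 0.22 and Slc16a6 by -0.33 ± 0.23, all with overlapping groups. Slc16a4 was the steadiest, at 1129.9 to 1350.1 in homozygous pools and 1134 to 1344 in control pools (difference -0.01 ± 0.07, 95% interval -0.16 to 0.14), although its dimmer probe set differed by -0.47. Slc16a10, a carrier of aromatic amino acids and thyroid hormone, was higher by 0.32 ± 0.12 in its brightest probe set (limma adjusted p = 0.25). Its dimmer probe sets differed by only 0.03, 0.03 and 0.0004, with overlapping groups. Slc16a11 differed by 0.05 and Slc16a14, at or under the floor on 4 arrays of each genotype, by 0.11.

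All 4 members grouped here as nucleoside carriers were lower, by small amounts that did not pass, where 46.1% of all genes were lower. Slc29a4, of the same family as Slc29a1, was counted above with the organic cation carriers and was higher by 0.63. The Slc29a family thus had 3 lower members and 1 higher. The equilibrative carriers Slc29a1, Slc29a2 and the lysosomal Slc29a3 differed by -0.09 ± 0.23, -0.22 ± 0.23 and -0.45 ± 0.32. For Slc29a3 the 2 lowest values, 97.6 and 129, were in homozygous pools 5 and 3, and control pool 1 followed at 137. Slc28a3, a sodium-driven carrier, was near the floor, at 4.7 to 29.9 in homozygous pools and 16.1 to 34.1 in control pools.

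Of the remaining Slc22 genes, Slc22a22, a prostaglandin carrier of the mouse kidney, had the largest difference. Slc22a22 (GRCm38.p6, chromosome 15, 57243767 to 57477625) measured 89.3, 100, 74.7, 148 and 53.3 in homozygous pools 1 to 5, against 434, 172, 337, 267 and 171 in control pools 1 to 5. Its groups did not overlap, and the log2 difference was -1.55 ± 0.35 (limma adjusted p = 0.0753). Slc22a23 ranged from 136 to 197 in homozygous pools and 204 to 346 in control pools without overlap (difference -0.53 ± 0.19, limma adjusted p = 0.207). The orphan Slc22a18, an imprinted gene, differed by -0.26 ± 0.14. Slc22a17, a receptor of lipocalin 2, and Slc22a15 differed by 0.09 ± 0.23 and 0.11 ± 0.28, and Slc22a14 was at or under the floor on all arrays. Slc22a17 was lowest in homozygous pool 5, at 392, and in control pool 1, at 422, the arrays of high actin ratio; all others lay between 639 and 796.

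Set by where they act in the adult, the 16 measured members of a list of proximal tubule carriers had a median difference of -0.90, and the other 45 members a median of -0.01. In the proximal tubule list 14 of 16 were lower (87.5%) and 6 were separated with all homozygous pools lower (37.5%). Among the others these were 23 of 45 (51.1%) and 3 of 45 (6.67%), and among all genes 46.1% and 2.10%. The contrast depends on the list, which was chosen with earlier results of these data known. Slc22a22 and Slc16a12, also carriers of the kidney, are among the others. The list's higher members were Slc22a5 and Slco1a1, the second near the floor. Of the 16, 9 had a mean intensity above 100, and 8 of these 9 were highest among controls in control pool 1 and 7 lowest in control pool 2, while 6 were highest among homozygous pools in pool 4 and 5 lowest in pool 3.

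Markers of the proximal tubule itself were lower as well. Of 8 listed markers 7 were measured, all 7 were lower and 5 fell (Lrp2, Cubn, Slc34a1, Hnf4a and Pdzk1), with a median of -1.36. Among all genes 46.1% were lower and 0.429% passed as lower. The summed intensity and level of these 7 markers follow. Their summed intensity was 2435 to 4086 in homozygous pools and 6690 to 10420 in control pools, and none was at the floor on all arrays. The mean of the 7 was 8.59 ± 0.34 in homozygous pools and 9.91 ± 0.33 in control pools (log2, SD, n = 5 each), lower by 1.32. Subtracting this mean in each pool adds 1.32 to any gene's difference. On that relative log2 scale the 9 proximal tubule members with a mean above 100 ranged from -0.51 to 1.39 (homozygous minus control), and the groups overlapped in 7. These 7 were Slc22a19 (-0.51), Slc22a2 (-0.07), Slco4c1 (-0.07), Slc47a1 (0.20), Slc22a6 (0.40), Slc22a12 (0.44) and Slc15a2 (0.78). Slc16a9 (0.96) and Slc22a5 (1.39) were higher without overlap. Outside the list, Slc52a3 differed by -0.31 with overlap and Slco1a4 by 0.85 without overlap. Many other members outside the list were also higher without overlap on this scale. Among them were Slc15a5, Slc22a14 and Slco6b1 (1.32 each), at the floor on all arrays, where the whole value comes from the subtraction. The part of the tubule markers in the members' differences was not tested. The 4 liver markers, a tissue that shares many of these carriers, summed to 3277 to 22912 in homozygous pools and 2938 to 22607 in control pools, and the 2 measured intestine markers stayed between 3 and 46 in all pools.

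**Figure D4:**
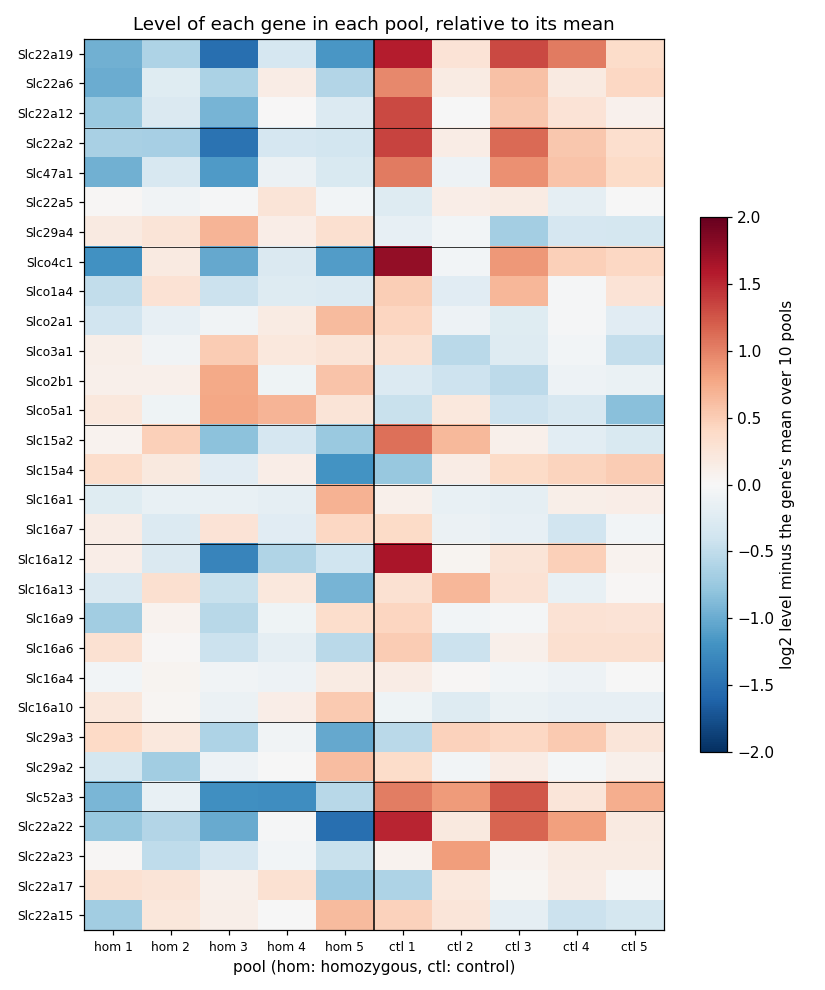
Level of the 30 members with a mean intensity above 100 in each of the 10 pools, as the log2 difference from the gene's own mean, with homozygous pools left of the black line and control pools right of it. Rows are grouped by role in the order organic anion, organic cation and carnitine, OATP, peptide, lactate, other Slc16, nucleoside, riboflavin and other Slc22. For Slc22a2 and Slc22a12 control pool 1 is the reddest field and homozygous pool 3 the bluest.

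Carriers and regulators that work with these families were given by lists. Among all genes 0.429% passed as lower and 0.539% as higher. Of 13 partner carriers 1 fell, with a median of -0.94: Slc5a8, the sodium-coupled lactate carrier, differed by -1.91 ± 0.32 (limma adjusted p = 0.0426). The phosphate and urate carrier Slc17a3 was lower by 1.13 ± 0.26 and did not pass (limma adjusted p = 0.0782). Of the 9 ATP-driven efflux pumps none passed and the median was 0.29. Abcc4, an apical pump of proximal tubule cells, differed by -0.53 ± 0.15 and Abcb1a by 1.07 ± 0.39, the smallest p-values of that list. Of 6 chaperones and scaffolds Pdzk1 fell, by 1.36 ± 0.25 on the log2 scale (limma adjusted p = 0.0473); this scaffold binds Slc22a12 and other apical carriers. Pdzk1ip1, which binds Pdzk1, had the next smallest p of that list and differed by -0.53 ± 0.26. Of 8 measured nuclear factors 1 fell: Hnf4a, by 1.51 ± 0.21 (limma adjusted p = 0.0295). Cebpb, with the next smallest p, differed by 1.06 ± 0.37 (limma adjusted p = 0.203).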

How the data were processed

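RNA of urogenital systems from embryos at embryonic day 15.5 was labelled and hybridized to 10 Affymetrix arrays, 5 per genotype, per the labels. Values deposited by the authors are linear intensity, 1 per probe set for each array, with a trimmed mean of 500 on all arrays; how probes were summarized, and with which software, is not given in the sources used here. Groups and replicate numbers come from the titles. The labels name 5 distinct RNA pools per genotype, so the p-values rest on differences among pools. No 2 arrays were identical.

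Of 45101 probe sets 64 controls were left out, and 34945 had 1 gene symbol, 932 several and 9160 none here; no member's symbol needed an update. Deposited values under 16 were set to 16 and log2 was taken, and each gene was represented by its probe set of highest mean. Folds that involve floored values are understated. The genotype comparison used limma 3.58.1 under R 4.3.3 (eBayes with intensity trend, two-sided, Benjamini-Hochberg adjusted p under 0.05) over 18193 genes, and in a second fit over 45037 probe sets. The procedure was also run on simulated data with noise drawn independently for each gene. These data held no shared differences in tissue, RNA integrity or Xist, so they cannot show how reliable the calls made here are. Named genes were those past the threshold, the 10 largest differences above a mean of 100, the 10 brightest and up to 5 per role; the other members are given to account for all 61. The members and lists were chosen with earlier results of these data known. A sign change between fits was counted as a reversal only where a difference exceeded 2 standard errors. Alternatives concerned the floor, normalization, probe set choice, dim genes, variance model, array weights, replicate block, actin ratio, Xist, single pools and, chosen after seeing the data, control pools 1 and 2.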

Additional observations from a re-analysis of the deposited data

Results flagged for a closer look

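Among the 61 genes, 112 groups of 5 pools had values that could be examined, and in 17 of them 1 pool lay far from the other 4. This was judged by the ratio of its gap to the group's range, on log2 values after the floor of 16 was set. Without floored values chance alone gives about 1 such group in 20, a rate that need not hold with them. The intensities below are as deposited. In the groups named for Slc15a1, Slc22a27, Slc22a4, Slco1a1 and Slco6d1 some were under the floor, which enlarges the ratio. Of the 17, 10 were in homozygous pool 5 or control pool 1, the arrays of high actin ratio. Homozygous pool 5 had 6775 for Slc16a1 (others 3548 to 3798), 392 for Slc22a17 (694 to 796) and 25.7 for Slco6d1 (10.3 to 18.2). Control pool 1 had 186 for Slc15a4 (347 to 447), 1018 for Slc16a12 (340.0 to 457), 41.4 for Slc16a3 (69.7 to 82.6), 422 for Slc22a17 (639 to 749), 137 for Slc29a3 (235 to 285), 47.3 for Slco1a1 (5.3 to 21.2) and 210.0 for Slco1a6 (97.6 to 109). Control pool 2 had 50.1 for Slc15a1 (13.4 to 19.9), 41.0 for Slc16a5 (84.7 to 111) and 345.5 for Slc22a23 (204 to 218). Homozygous pool 3 had 40.1 for Slc22a2 (70.5 to 88.6) and 20.6 for Slc22a27 (1.6 to 16.6), homozygous pool 1 had 41.0 for Slc22a4 (2.5 to 20.5), and homozygous pool 4 had 1161 for Slc22a5 (924.5 to 979.7). The part of RNA integrity in these values was not tested.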

How the results depend on the processing

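The number of genes past the threshold in limma was 176 (98 higher, 78 lower). It was 95 with a floor of 32 (46 higher, 49 lower), 299 with log2(intensity + 16), 109 with the mean of all probe sets, 108 with the dimmest 60% left out, 951 with array weights, 23 when the 2 pools of high actin ratio were left out, 28 when the 3 pools of high Xist were (25 higher, 3 lower), 13 with the Xist level as a covariate (12 higher, 1 lower), 83 without control pools 1 and 2 (57 higher, 26 lower; chosen after seeing the data), and 3 to 414 with 1 pool left out (3 without homozygous pool 3 or control pool 3, 414 without control pool 2). Members called lower numbered 2, against 1 with a floor of 32 or quantile normalization, 5 with log2(intensity + 16) or array weights, 0 with dim genes left out (7 members tested), 0 with the Xist covariate or when any of these 3 sets of pools was left out, and 0 to 5 with 1 pool left out. With array weights 1 member, Slc29a4, was called higher. The members' median of -0.14 was -0.044 with a floor of 32, -0.24 with quantile normalization, -0.0083 with dim genes left out, -0.074 without the Xist-high pools, -0.079 with the Xist covariate and -0.19 without control pools 1 and 2. Probe sets called numbered 104, against 61 with a floor of 32 and 265 with log2(intensity + 16), where 2 member probe sets passed; 1 passed after quantile normalization.

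The titles number the pools 1 to 5 in both genotypes. With this number as a replicate block 1 gene, 0 members and 1 probe set passed. Deviations of same-numbered pools correlated at -0.66 to -0.20 over 11523 genes and 0 of 5 homozygous pools correlated best with their own number, so the numbers were not taken to pair the pools. Of the 61 members 33 kept their sign in all alternatives run, among them the 9 separated lower and 2 separated higher, a direction that their separation fixes when pools are left out. No difference above 2 standard errors changed sign. The causes were not tested. Dim probe sets near the floor limit what can be seen of 31 members with a mean of 100 or less.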

Other observations

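Genes outside the 8 families whose log2 level was most like that of Slc22a19 over the 10 arrays were Sh3rf1 (Pearson r = 0.992), Has3 (0.991) and Spp2 (0.990). Their log2 differences were -0.68, -1.15 and -1.41. For Slc52a3 they were the sulfate carrier Slc13a1 (r = 0.972, difference -1.35), the glucuronosyltransferase Ugt2b38 (0.954, -1.98) and Tfam (0.952, -0.25). These values describe the 10 arrays only, and much of each r comes from the gap between the genotypes.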
